A study of Homo sapiens with 12 samples.

Results

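Y15 and PF04554878, 2 small-molecule inhibitors of focal adhesion kinase (FAK), were compared as single agents on Illumina expression arrays. The samples were chosen by title: 2 arrays were labelled Y15 at 1 µM and 2 were labelled PF04554878 at 1 µM, 4 of the 12 arrays in the series. The other arrays held Y15 at 1 µM plus lapatinib at 5 µM, PF04554878 at 1 µM plus lapatinib at 5 µM, lapatinib at 5 µM, and untreated cells, 2 arrays each. All cells are labelled SKBR-3, a breast carcinoma line in which ERBB2 is amplified and the oestrogen receptor is known to be missing, and treatment lasted 24 hours. No vehicle is named for the untreated cells. Nor do they tie the replicates to separate cultures, and p-values here therefore rest on array-to-array spread that may be technical.

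FAK, encoded by PTK2, is a cytoplasmic tyrosine kinase at focal adhesions, the sites where integrins link the matrix to the actin skeleton. Binding of integrins leads FAK to phosphorylate itself, which makes a docking site for the kinase SRC, and the pair signal to the ERK and PI3K pathways. Y15 was designed against the region of that self-phosphorylation site. PF04554878, also called defactinib, competes with ATP in the kinase domain and also inhibits the related kinase PYK2, encoded by PTK2B. Both drugs act on a protein, so an array reports what the transcripts did and not whether the kinase was inhibited.

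The labels were checked first. ESR1, the oestrogen receptor, which this line is known to lack, read 9.89 and 10.02 in the Y15 arrays, 10.11 and 9.99 in the PF04554878 arrays and 10.24 and 9.96 in the untreated arrays, on a log2 scale whose background cutoff was 6.80. Groups are therefore called by their labels throughout. The arrays also fell into 3 sets that cross the labels. Across genes, the Y15 arrays correlated with each other at 0.9953 and with the untreated arrays at a mean r of 0.986, but with the PF04554878 arrays at 0.933. The PF04554878 arrays correlated with each other at 0.9937 and with the PF04554878 plus lapatinib arrays at 0.9847. Y15 plus lapatinib correlated at 0.9846 with lapatinib alone. The Y15 and PF04554878 arrays thus lie in different sets. A difference between the drugs and a difference between the sets cannot be told apart here, and neither was tested as a cause. Below, higher or lower with Y15 means higher or lower in the arrays so labelled. As genes do not act as independent samples, the correlations are descriptions of these arrays. All 8 luminal epithelial markers passed the background filter, against 2 of 5 basal, 3 of 13 fibroblast, 2 of 10 endothelial, 2 of 13 leukocyte and 2 of 8 adipocyte markers. In bulk RNA, fewer cells of a type and less RNA per cell cannot be told apart.

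The Y15 and PF04554878 arrays differed over much of the transcriptome. Of 11564 genes above background on at least 2 of the 12 arrays, 5483 passed an adjusted p of 0.05 in limma, which is 47.4% of the genes tested. With Y15, 2651 genes were higher (22.9%) and 2832 lower (24.5%), and the median difference over all genes was 0.0050 on the log2 scale. Most differences were small: 663 genes reached 2-fold, 279 higher and 384 lower. Of the same 11564 genes, 397 were above background on both Y15 arrays and neither PF04554878 array. Another 509 were above it on both PF04554878 arrays and neither Y15 array. These counts overlap with the 663, and MAGED1 and LAMP3 are among the genes in both. Of the 663 genes, the untreated mean lay nearer to the Y15 mean in 639 (96.4%), and over all 5483 it did so in 4611 (84.1%).

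**Figure D1:**
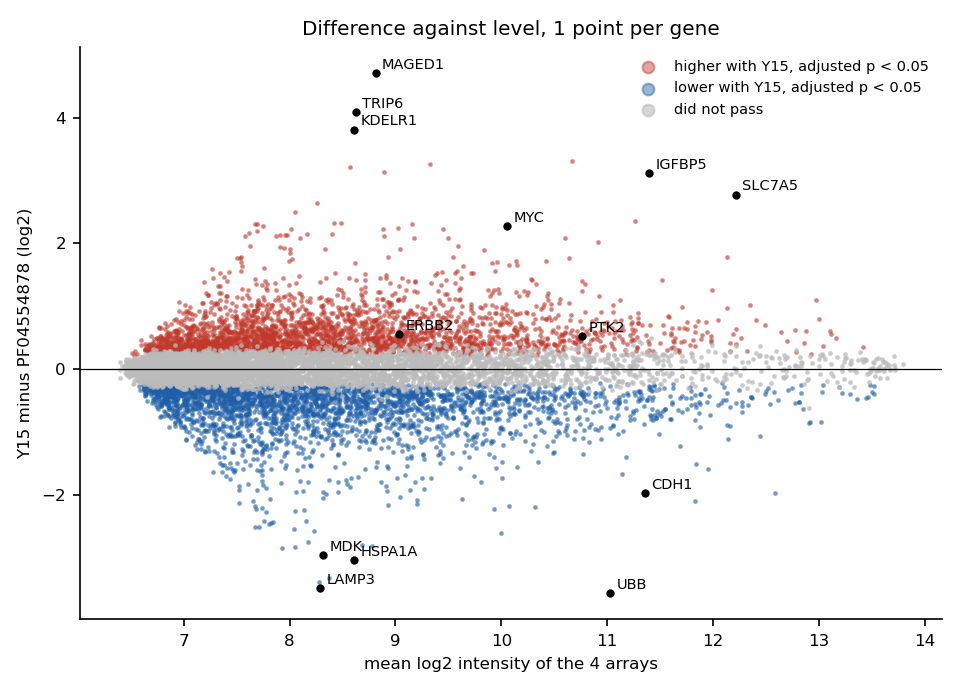
Difference between the Y15 and PF04554878 arrays (log2, positive where Y15 is higher) against the mean log2 intensity of the 4 arrays, 1 point per gene. The cloud is centred near 0 and spreads both ways, with IGFBP5 at 3.12 and UBB at -3.56, while PTK2 and ERBB2 lie near the middle. Points of genes below background in 1 group, such as MAGED1, TRIP6, KDELR1 and LAMP3, are fitted values with no set order.

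The targets themselves moved little at the transcript level. PTK2 read 11.03 and 11.01 in the Y15 arrays, 10.57 and 10.43 in the PF04554878 arrays and 11.07 and 11.17 in the untreated arrays. It was 0.52 ± 0.10 (SE) higher with Y15 (adjusted p = 0.000325), although a dimmer PTK2 probe differed by -0.07. PTK2B read 6.90 and 6.80 with Y15 and 6.89 and 6.92 with PF04554878, just above background, and the difference of -0.05 had a 95% interval from -0.24 to 0.14. The receptors that lapatinib binds were also close. ERBB2, for whose amplification the labelled line is known, read 9.27 and 9.36 in the Y15 arrays, 8.67 and 8.83 in the PF04554878 arrays and 9.34 and 9.35 in the untreated arrays. It was 0.56 ± 0.09 higher with Y15 (adjusted p = 0.000119), and its dimerisation partner ERBB3 was 0.62 ± 0.14 higher (adjusted p = 0.0019). With the probes of the gene averaged, the ERBB3 difference was 0.14 and did not pass. EGFR was below background on both Y15 arrays and both untreated arrays, and just above it on both PF04554878 arrays, at least 1.04-fold lower with Y15. That call was lost when any 1 of the 4 arrays was left out. The EGFR ligand TGFA was lower (-0.91 ± 0.12) with Y15 (adjusted p = 1.92e-05), and EGF, a second ligand, lay below background with Y15 and was at least 1.03-fold lower.

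Among 20 genes of the FAK family and its direct partners, 7 were higher and 4 lower with Y15, beside 22.9% and 24.5% of all genes, with a median difference of -0.04. These shares are the background for every list count between the single agents. SRC, the kinase that docks on FAK, read 8.71 and 8.40 in the Y15 arrays, 7.24 and 7.11 in the PF04554878 arrays and 8.49 and 8.56 in the untreated arrays, a difference of 1.38 ± 0.11 (adjusted p = 5.44e-08). The groups did not overlap, and the untreated arrays lay with Y15. ASAP1, an ARF GTPase-activating protein that binds FAK, was 0.86 ± 0.09 higher, and the adaptor GRB7, a neighbour of ERBB2 in its amplicon, was 0.85 ± 0.09 higher. The 4 lower genes were the adaptor GRB2 (-0.87 ± 0.13), the actin linker vinculin, VCL (-0.78 ± 0.11), the PI3K regulatory subunit PIK3R1 (-0.73 ± 0.10) and ASAP2 (-0.54 ± 0.14). ASAP2 did not pass without Y15 replicate 2 or without PF04554878 replicate 1. GRB2, VCL and ASAP2 were named after their values had been seen. A second probe of GRB2 (-0.29) and of VCL (-0.08) did not pass, while 2 other ASAP2 probes did (-0.85 and -0.74).

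Structural genes of the adhesion split both ways. Of 28 integrins, laminins and focal adhesion genes, 8 were higher and 11 lower with Y15. TRIP6, a zyxin-family LIM protein of focal adhesions, read 10.67 and 10.68 in the Y15 arrays, 6.55 and 6.61 in the PF04554878 arrays and 10.92 and 11.01 in the untreated arrays. Of these 6 arrays only the PF04554878 ones were below background, which makes TRIP6 at least 14.7-fold higher with Y15 (adjusted p = 3.7e-14). LPP, another LIM protein of the same family, was 1.38 ± 0.12 higher, whereas FERMT2 (kindlin-2), which activates integrins, was lower (-1.13 ± 0.08) and PARVA, the alpha-parvin that ties integrin-linked kinase to actin, lower (-1.13 ± 0.10). Of 22 targets of YAP and SRF, transcription factors that respond to the actin skeleton, 5 were higher and 6 lower. PLS3, an actin-bundling protein, read 10.36 and 10.54 with Y15, 7.40 and 7.25 with PF04554878 and 10.46 and 10.78 in untreated cells (3.13 ± 0.11, adjusted p = 2.09e-11). ACTA2, smooth muscle actin, went the other way, with 7.25 and 7.29 in the Y15 arrays, 8.87 and 8.86 in the PF04554878 arrays and 7.04 and 7.20 in the untreated arrays (-1.60 ± 0.09), and AJUBA, a LIM protein that binds YAP regulators, was lower (-1.15 ± 0.10).

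**Figure D2:**
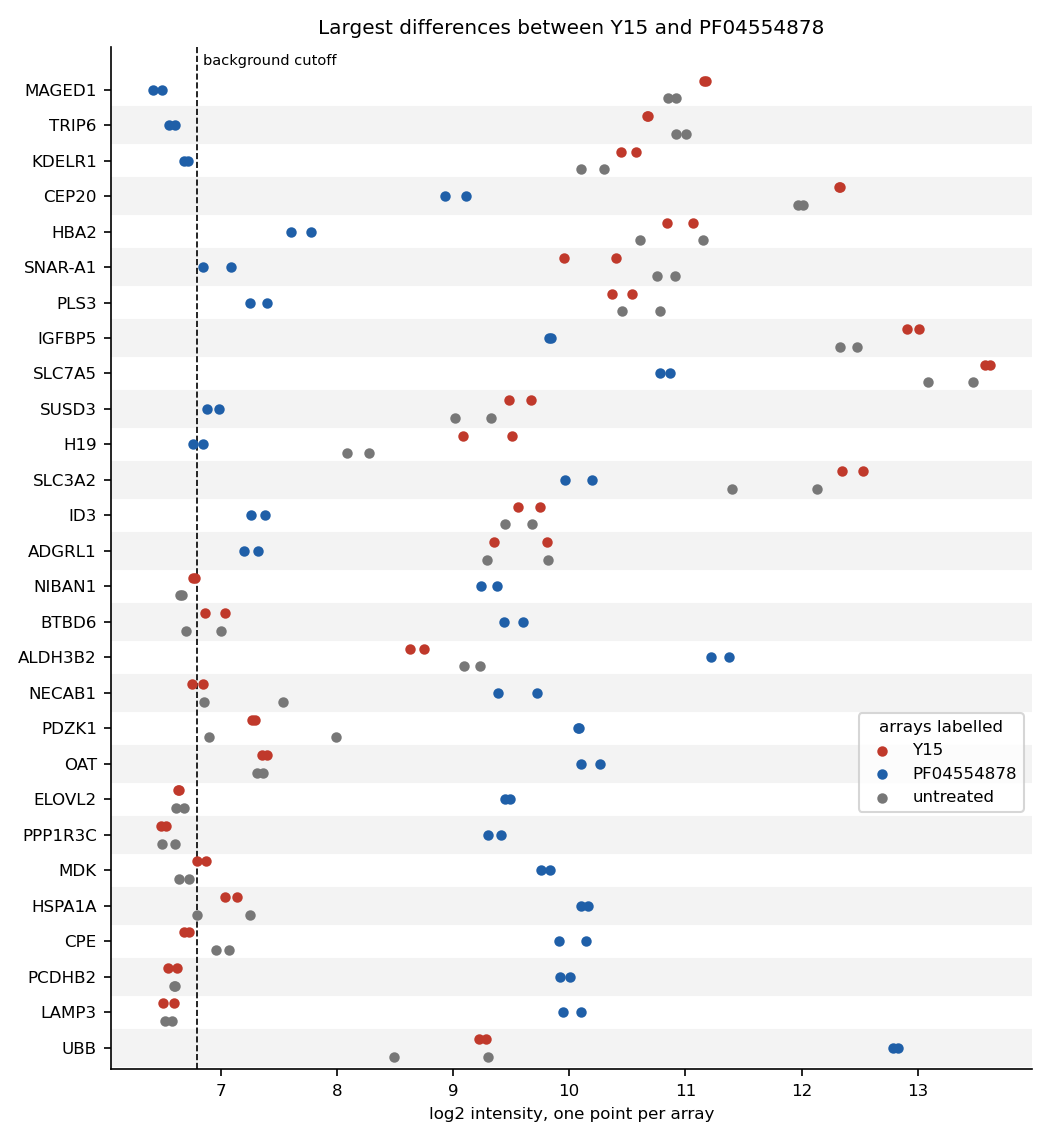
Log2 intensity of the 14 genes with the largest fitted differences each way between Y15 and PF04554878, 1 point per array, in the arrays labelled Y15, PF04554878 and untreated (from the upper to the lower row of points within a gene). The dashed line is the background cutoff of 6.80. For each of the 28 genes the Y15 and PF04554878 points are apart, and the untreated points lie on the Y15 side.

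Cell-cell adhesion genes also differed. CDH1, E-cadherin of epithelial junctions, read 10.36 and 10.37 in the Y15 arrays, 12.49 and 12.20 in the PF04554878 arrays and 10.53 and 10.28 in the untreated arrays, 3.94-fold lower with Y15 (-1.98 ± 0.11, adjusted p = 1.88e-09). The desmosomal cadherin DSG2 moved oppositely, with 10.54 and 10.60 in the Y15 arrays, 8.76 and 8.47 in the PF04554878 arrays and 10.62 and 10.57 in the untreated arrays (1.95 ± 0.10, adjusted p = 9.13e-10). Of 14 cadherin, catenin and mesenchymal genes, 5 were higher and 2 lower with Y15. In the protocadherin beta cluster, homophilic adhesion molecules best known from neurons, 5 of 9 genes tested were lower and 0 higher. All 5 were below background on both Y15 arrays, so they passed the filter only through other arrays, and their count is no measure of the cluster. Of the 9, 2 were above background on all 4 single-agent arrays, and 0 of these were called higher or lower. PCDHB2 read 6.54 and 6.63 with Y15, an average of 9.96 with PF04554878 and 6.61 and 6.59 in untreated cells, at least 8.97-fold lower with Y15, and PCDHB3 was at least 4.01-fold lower. PCDHB16, PCDHB13 and PCDHB8 were lower by at least 1.05-fold to 1.27-fold, and the last 2 calls were lost without 1 of the arrays.

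Early response genes were among the larger differences. The ERK pathway switches on short-lived transcription factors and then its own inhibitors. Of 19 such genes 8 were higher and 4 lower with Y15, the lower count being 2 without Y15 replicate 2. MYC, a transcription factor that drives growth, read 11.10 and 11.28 in the Y15 arrays, 9.09 and 8.75 in the PF04554878 arrays and 10.70 and 11.22 in the untreated arrays, 4.83-fold higher with Y15 (2.27 ± 0.18, adjusted p = 6.43e-08). IER3, an immediate early gene, read 11.93 and 11.91 with Y15, 9.85 and 9.94 with PF04554878 and 10.64 and 10.90 in untreated cells (2.03 ± 0.12), so the untreated arrays lay between the drugs. JUNB, a subunit of the AP-1 factor, was 1.45 ± 0.14 higher. PHLDA1, a feedback gene of receptor kinase signalling, read 6.72 and 6.97 with Y15, 8.66 and 8.60 with PF04554878 and 6.78 and 6.69 in untreated cells (-1.78 ± 0.10).

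Ribosome biogenesis, the making of ribosomes in the nucleolus, is a known output of MYC. Of 29 genes in that list 18 were higher with Y15, against 22.9% of all genes, and 2 were lower, NOP10 (-0.56) and UTP4 (-0.55), with a median of 0.30. With 1 array left out the higher count ran from 13 to 14. NHP2, a core protein of H/ACA ribonucleoproteins, read 12.64 and 12.60 in the Y15 arrays, 11.28 and 11.44 in the PF04554878 arrays and 12.81 and 12.72 in the untreated arrays (1.26 ± 0.09, adjusted p = 2.72e-08). NOP16, a nucleolar assembly factor, was 1.05 ± 0.11 higher, BOP1, needed for large-subunit maturation, 0.88 ± 0.09 higher, and nucleolin, NCL, 0.75 ± 0.09 higher. Of the cytosolic ribosomal proteins themselves 10 of 31 were higher and 3 lower, among them RPS3 at 0.79 ± 0.10 and RPS23 at -0.91 ± 0.09.

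Promoters of 2 of the higher genes, NOP2 (0.71 ± 0.12), an rRNA methyltransferase, and BYSL (0.84 ± 0.10), a small-subunit assembly factor, are shown because they hold the E-box CACGTG, the sequence that MYC and related factors are known to bind. Each window runs from 250 bases before to 50 bases after the annotated start, from RefSeq on GRCh38.p14, with the E-box in capitals. NOP2 lies at chr12:6568242-6568541 on the minus strand and BYSL at chr6:41921249-41921548 on the plus strand.
NOP2: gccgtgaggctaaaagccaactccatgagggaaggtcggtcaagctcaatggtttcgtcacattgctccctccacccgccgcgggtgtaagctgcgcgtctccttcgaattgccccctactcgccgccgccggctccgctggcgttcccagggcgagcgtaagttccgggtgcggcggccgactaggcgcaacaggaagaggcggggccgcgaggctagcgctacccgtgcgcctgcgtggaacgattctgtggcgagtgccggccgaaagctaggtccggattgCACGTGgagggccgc
BYSL: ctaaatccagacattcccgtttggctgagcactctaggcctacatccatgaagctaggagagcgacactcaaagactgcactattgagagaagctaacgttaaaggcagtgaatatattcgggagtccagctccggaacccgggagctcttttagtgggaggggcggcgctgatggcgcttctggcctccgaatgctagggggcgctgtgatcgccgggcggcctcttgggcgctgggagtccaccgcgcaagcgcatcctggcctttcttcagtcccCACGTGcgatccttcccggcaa
Of the 25 ribosome biogenesis genes matched to a promoter, 11 (44%) held this E-box on either strand, against 12.8% of the 9294 genes tested that were matched. The motif reads the same on both strands. Of the 15 higher genes matched 5 held it, and so did both lower genes. Among genes at least 2-fold higher with Y15, 29 of 226 matched held it, and among those at least 2-fold lower 40 of 308. A match is a description of the sequence only.

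The proteasome is the protease that degrades ubiquitin-tagged proteins. Of its 26 subunit genes, 20 were lower with Y15, against 24.5% of all genes, and 1 was higher, PSMD2 (0.41 ± 0.08), named after its value had been seen. The median difference was -0.53, and 18 or 19 of the genes were lower with 1 array left out, when 1 or 2 were higher. PSMA1, an alpha-ring subunit, read 10.36 and 10.60 in the Y15 arrays, 11.98 and 11.78 in the PF04554878 arrays and 10.85 and 10.74 in the untreated arrays, 2.64-fold lower with Y15 (adjusted p = 1.11e-07). PSMB6, which carries one of the catalytic sites, was lower (-1.23 ± 0.11), PSMA5 lower (-1.11 ± 0.10) and PSMB1 lower (-1.06 ± 0.09). PSME1 and PSME2, the subunits of the PA28 activator of the proteasome, were lower (-1.03 ± 0.11 and -1.33 ± 0.09).

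UBB, which encodes polyubiquitin, read 9.22 and 9.28 in the Y15 arrays, 12.79 and 12.83 in the PF04554878 arrays and 8.49 and 9.30 in the untreated arrays, 11.8-fold lower with Y15 (-3.56 ± 0.17, adjusted p = 3.21e-10). A second UBB probe differed by -3.14. The heat shock genes did not follow in a block. Of 20 ubiquitin genes and heat shock chaperones, 9 were higher and 5 lower. HSPA1A, the inducible cytosolic HSP70, read 7.14 and 7.04 with Y15, 10.10 and 10.16 with PF04554878 and 6.79 and 7.25 in untreated cells (-3.04 ± 0.15). The neighbouring copy HSPA1B read 11.02 and 10.97 with Y15, 9.63 and 9.54 with PF04554878 and 11.09 and 11.19 in untreated cells (1.41 ± 0.10). HSP90AB1, the constitutive cytosolic HSP90, was 1.02 ± 0.10 higher.

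The opposite readings of the HSP70 pair need care, since the 2 transcripts are nearly identical and a probe for one may also bind the other. Their promoters are shown side by side because they too are close copies, 92.0% identical over 301 aligned columns. The windows are again from RefSeq on GRCh38.p14, HSPA1A at chr6:31815293-31815592 and HSPA1B at chr6:31827488-31827787, both on the plus strand. Capitals mark the heat shock element core GAANNTTC, the inverted repeat that heat shock factor is known to bind.
HSPA1A: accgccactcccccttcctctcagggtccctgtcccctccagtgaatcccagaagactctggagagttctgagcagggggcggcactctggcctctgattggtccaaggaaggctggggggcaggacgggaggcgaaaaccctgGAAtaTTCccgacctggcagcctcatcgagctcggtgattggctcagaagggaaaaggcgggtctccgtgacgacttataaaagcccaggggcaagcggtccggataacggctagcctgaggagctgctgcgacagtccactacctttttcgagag
HSPA1B: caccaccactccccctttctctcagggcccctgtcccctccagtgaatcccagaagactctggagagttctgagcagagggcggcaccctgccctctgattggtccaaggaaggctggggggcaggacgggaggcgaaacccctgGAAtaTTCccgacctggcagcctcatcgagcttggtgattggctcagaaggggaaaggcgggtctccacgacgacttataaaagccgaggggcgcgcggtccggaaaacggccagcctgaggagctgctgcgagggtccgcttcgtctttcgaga
Each window holds 1 such core, with the same letters. Of 18 ubiquitin and heat shock genes matched to a promoter 11 (61.1%) held the core on either strand, against 6.63% of the 9294 genes. It was present in 5 of 8 higher genes and 2 of 4 lower genes. The core also reads the same on both strands, and neither window holds the E-box searched above.

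Amino acid transporters were among the largest values. SLC7A5 (LAT1) and SLC3A2 (4F2hc) are the light and heavy chains of one transporter of large neutral amino acids. SLC7A5 read 13.62 and 13.58 in the Y15 arrays, 10.78 and 10.87 in the PF04554878 arrays and 13.09 and 13.48 in the untreated arrays, 6.85-fold higher with Y15 (2.78 ± 0.11, adjusted p = 5.6e-11). SLC3A2 read 12.35 and 12.53 with Y15, 9.96 and 10.20 with PF04554878 and 11.40 and 12.14 in untreated cells (2.36 ± 0.17). Both are targets of ATF4, the factor of the amino acid stress response, whose wider list of 30 targets and tRNA synthetases was split, with 9 higher and 12 lower. DDIT4, an mTOR inhibitor, was 1.42 ± 0.11 higher, and STC2, a secreted glycoprotein that is also an oestrogen target, lower (-1.73 ± 0.10). KDELR1, a receptor that returns escaped proteins to the endoplasmic reticulum, read 10.45 and 10.58 with Y15 and 10.10 and 10.30 in untreated cells. With PF04554878 it read 6.68 and 6.72, below background, so it was at least 13.1-fold higher with Y15, while 7 of 19 genes of the unfolded protein response were higher and 8 lower.

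Zinc transporters of the ZIP family differed in opposite directions. SLC39A4 read 9.59 and 9.36 with Y15, 7.19 and 7.47 with PF04554878 and 9.01 and 8.92 in untreated cells (2.14 ± 0.11). SLC39A8 read 6.97 and 6.93 with Y15, 9.49 and 9.24 with PF04554878 and 7.13 and 7.01 in untreated cells (-2.42 ± 0.10). Of 14 metallothionein and zinc transport genes 3 were higher and 7 lower, and the lower count was 4 without Y15 replicate 2 and the higher count 1 without PF04554878 replicate 2.

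Growth factor genes of the IGF axis included some of the largest values. IGFBP5, a secreted IGF-binding protein, read 13.01 and 12.91 in the Y15 arrays, 9.84 and 9.83 in the PF04554878 arrays and 12.33 and 12.47 in the untreated arrays, 8.71-fold higher with Y15 (3.12 ± 0.11, adjusted p = 9.74e-12). H19, the imprinted noncoding RNA next to IGF2, read 9.51 and 9.09 with Y15, 6.84 and 6.76 with PF04554878 and 8.28 and 8.09 in untreated cells, so the untreated arrays lay between the drugs. The docking protein IRS2 was 1.48 ± 0.11 higher. In all, 6 of 14 genes were higher and 2 lower, the RNA-binding protein IGF2BP2 (-1.33 ± 0.10) and IGFBP2 (-0.95 ± 0.23). Of 15 other receptor kinases and their ligands 7 were higher and 3 lower. The lower ones were MDK, RET and ROR2. MDK (midkine), a heparin-binding growth factor, read 6.87 and 6.80 with Y15, 9.76 and 9.84 with PF04554878 and 6.64 and 6.72 in untreated cells (-2.96 ± 0.09, adjusted p = 3.38e-12). RET, the receptor of the GDNF family, was lower (-1.93 ± 0.10), ROR2, a WNT5A receptor, at least 2.08-fold lower, and the collagen receptor DDR1 1.21 ± 0.10 higher.

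Of 16 secreted and surface products of luminal cells 9 were lower and 2 higher with Y15, beside 24.5% of all genes lower, with a median of -0.38. The lower count was 5 without Y15 replicate 1, nearer to that share. Of the 16, 10 were above background on all 4 single-agent arrays, 7 of them lower and 1 higher. CEACAM6, a surface adhesion antigen, read 6.51 and 6.65 with Y15, 8.84 and 8.69 with PF04554878 and 6.50 and 6.58 in untreated cells, at least 3.90-fold lower with Y15. AGR2, an isomerase for secreted mucins, read 9.27 and 9.18 with Y15, 11.42 and 11.39 with PF04554878 and 9.66 and 9.06 in untreated cells (-2.19 ± 0.14). TFF3, a trefoil peptide, differed from this pattern in its untreated level, with 10.21 and 10.06 in the Y15 arrays, 11.11 and 11.39 in the PF04554878 arrays and 8.31 and 8.23 in the untreated arrays (-1.12 ± 0.13). Of 21 genes of the oestrogen receptor and its classic targets 5 were higher, BCL2 at 1.34 ± 0.12 the largest, and 5 were lower, PDZK1 at -2.80 ± 0.22 and STC2 the largest.

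Of 19 clustered histone genes 13 were lower with Y15, beside 24.5% of all genes, with a median of -0.43. Of the 19, 13 were above background on all 4 single-agent arrays, 10 of them lower and 2 higher. Transcripts of clustered histone genes normally end in a stem-loop without a poly(A) tail. H2AC18 read 8.91 and 8.74 with Y15, 10.31 and 10.48 with PF04554878 and 8.48 and 8.51 in untreated cells (-1.57 ± 0.14), H2BC21 was lower (-1.54 ± 0.10), H2AC20 lower (-1.43 ± 0.11) and H4C8 lower (-1.14 ± 0.10). Neither of the 2 higher genes, H4C3 and H2BC8, passed without Y15 replicate 1 or without PF04554878 replicate 1, and 1 of them passed without either of the other arrays. Some histone genes are near-identical copies, so a probe may read several. Cell cycle lists held genes that moved both ways. Of 30 mitosis genes 10 were higher and 7 lower, with 5 higher without Y15 replicate 2. CDK1, the mitotic kinase, was lower (-1.11 ± 0.09). Of 29 replication genes 7 were higher and 6 lower. MCM7, a helicase subunit, was 0.99 ± 0.10 higher and RFC4, a clamp loader, 0.89 ± 0.09 higher, while thymidylate synthase, TYMS, was lower (-0.93 ± 0.11).

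Of 19 targets of p53, the tumour suppressor, 9 were lower with Y15 and 3 higher, beside 24.5% of all genes lower. PHLDA3, a p53 target that inhibits AKT, read 7.28 and 7.31 with Y15, 9.27 and 9.41 with PF04554878 and 7.70 and 7.68 in untreated cells (-2.05 ± 0.09, adjusted p = 9.53e-11). Of 19 NRF2 and redox genes 7 were lower and 1 higher, the ferritin light chain FTL (0.56 ± 0.11). PRDX1, a peroxide scavenger, was lower (-0.86 ± 0.10) and the efflux pump ABCC3 lower (-1.32 ± 0.09). The lower count of this list fell without PF04554878 replicate 1, as did the lower count over all genes. Its higher count rose without PF04554878 replicate 2. Of the 19, 16 were above background on all 4 single-agent arrays, 4 of them lower and 1 higher. Of 25 interferon-stimulated genes 14 were above background on all 4 single-agent arrays, 6 of these lower and 0 higher. Over all 25, 9 were lower and 0 higher. UBE2L6, the E2 enzyme for ISG15, was lower (-1.25 ± 0.13), and the lower count was 3 without PF04554878 replicate 2, below the share of all genes, and 5 without either Y15 array. LAMP3, a lysosomal membrane glycoprotein, read 6.60 and 6.50 with Y15, 10.10 and 9.95 with PF04554878 and 6.58 and 6.52 in untreated cells. The probe was below background with Y15, so LAMP3 was at least 9.36-fold lower (adjusted p = 9.05e-13), while 7 of 27 lysosome and autophagy genes were higher and 10 lower.

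**Figure D3:**
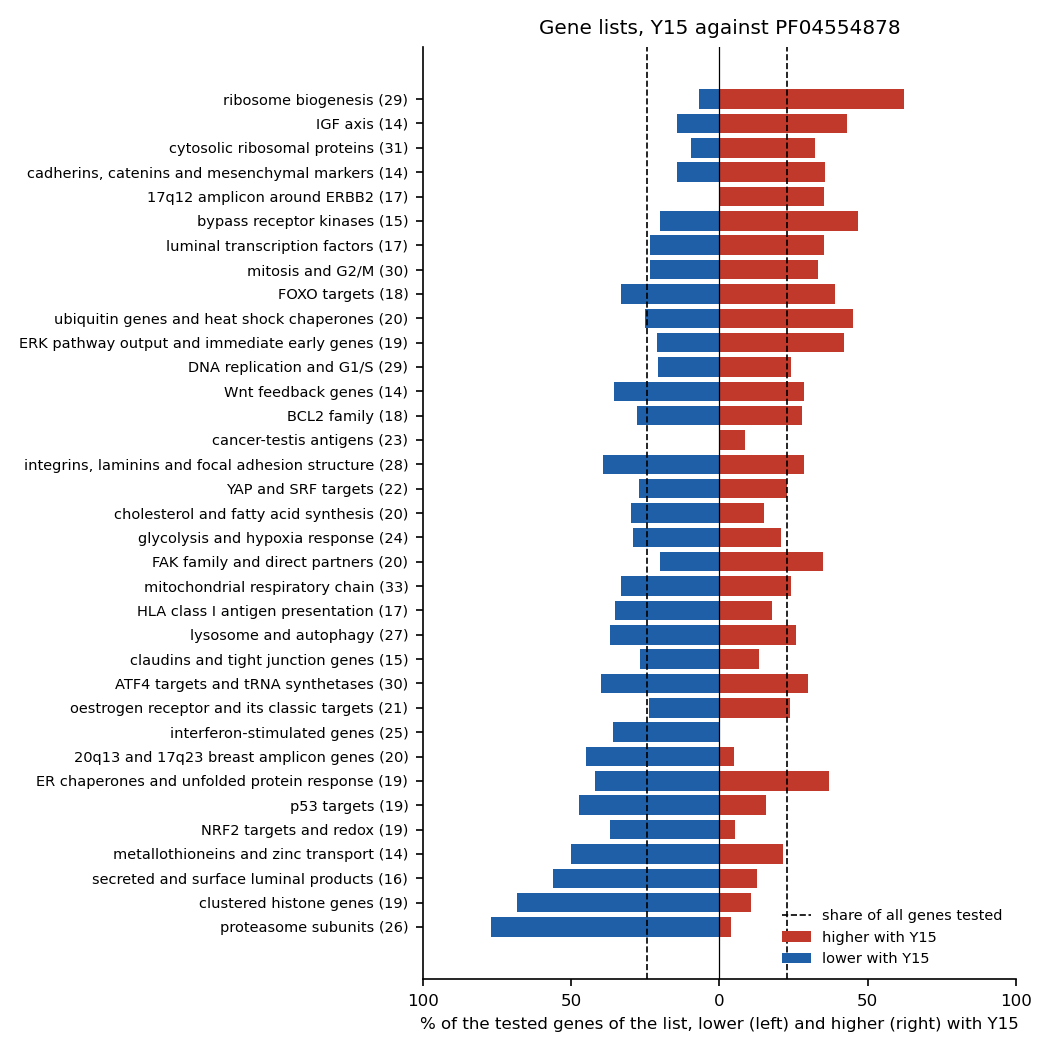
Share of the tested genes of each list that passed higher (right, from 0) or lower (left, from 0) with Y15 than with PF04554878, for lists with at least 14 genes tested (number in brackets), ordered by median difference. The dashed lines give the same shares over all 11564 genes, 22.9% and 24.5%. Ribosome biogenesis reaches 18 of 29 on the right, and proteasome subunits 20 of 26 on the left.

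The remaining genes with the largest differences came from varied classes. MAGED1, a MAGE-family adaptor, read 11.16 and 11.18 in the Y15 arrays, 6.50 and 6.42 in the PF04554878 arrays and 10.92 and 10.85 in the untreated arrays, at least 20.7-fold higher with Y15 (adjusted p = 1.84e-14). Its other probes differed by 3.66 and 0.44. PRAME, another tumour antigen, was below background on both PF04554878 arrays and was at least 3.76-fold higher with Y15, and no other of 23 cancer-testis genes tested passed. Of the 23, 1 was above background on all 4 single-agent arrays, so their count is no measure of the list. CEP20, a centrosomal protein, read 12.32 and 12.33 with Y15, 9.11 and 8.93 with PF04554878 and 11.97 and 12.01 in untreated cells (3.30 ± 0.09). HBA2, an alpha-globin, was 3.26 ± 0.15 higher and SNAR-A1, a small NF90-bound noncoding RNA, 3.22 ± 0.16 higher, and both have near-identical copies that the probe may read. SUSD3, a surface protein, was 2.65 ± 0.11 higher. The adhesion receptor ADGRL1 was 2.32 ± 0.16 higher.

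ID3, an inhibitor of basic helix-loop-helix factors and a target of BMP signalling, read 9.75 and 9.56 with Y15, 7.38 and 7.26 with PF04554878 and 9.45 and 9.68 in untreated cells (2.33 ± 0.12). Among the lower genes, CPE, a carboxypeptidase that trims prohormones, read 6.69 and 6.73 with Y15, 10.14 and 9.91 with PF04554878 and 6.96 and 7.07 in untreated cells, at least 9.38-fold lower with Y15. Several lower genes encode metabolic enzymes or their regulators. PPP1R3C, which targets a phosphatase to glycogen, was at least 5.88-fold lower, and ELOVL2, an elongase of polyunsaturated fatty acids, at least 6.37-fold lower. OAT, ornithine aminotransferase, was lower (-2.81 ± 0.10) and the aldehyde dehydrogenase ALDH3B2 lower (-2.61 ± 0.09). The sterol enzymes SC5D and HMGCS1 were lower (-1.73 ± 0.15 and -0.86 ± 0.10), in a list of 20 lipid synthesis genes with 3 higher and 6 lower. The higher count was 1 without Y15 replicate 1, Y15 replicate 2 or PF04554878 replicate 2. NECAB1, a neuronal calcium-binding protein above background on 1 of the 2 Y15 arrays, was lower (-2.75 ± 0.17), BTBD6, a ubiquitin ligase adaptor, lower (-2.57 ± 0.13) and NIBAN1, a stress-induced protein, at least 5.70-fold lower. The PDZ scaffold PDZK1 showed wide untreated values, 6.90 and 7.99, against 7.27 and 7.30 with Y15 and 10.08 on both PF04554878 arrays.

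The same pair of drugs could be compared on top of lapatinib in 4 arrays that the first comparison does not use. This pair too compares arrays of different sets. Y15 plus lapatinib correlated with lapatinib at a mean r of 0.9846 but with Y15 at 0.891. PF04554878 plus lapatinib correlated with PF04554878 at 0.9847 but with lapatinib at 0.875. Both comparisons thus share the PF04554878 set. Differences by drug, by lapatinib and by set cannot be told apart in what follows. Of 11564 genes, 6278 passed (54.3%), 3135 higher and 3143 lower with Y15 plus lapatinib than with PF04554878 plus lapatinib. Across genes the differences of the 2 comparisons correlated with r = 0.324, given as a description over 11564 genes. In both comparisons 3519 genes passed, 2575 of them in the same direction (47.0% of the single-agent calls and 41.0% of the calls with lapatinib) and 944 in opposite directions. The difference between the comparisons itself passed for 5176 genes (44.8%). It passed for 948 of the 2575 as well.

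Of the 28 genes with the largest fitted single-agent differences, 22 passed in the same direction with lapatinib, 1 in the opposite direction, and 5 did not pass. MAGED1 averaged 11.22 with Y15 plus lapatinib and 6.44, below background, with PF04554878 plus lapatinib, at least 21.5-fold higher with Y15. PPP1R3C, below background in both Y15 groups, was at least 7.52-fold lower with Y15 in the pair with lapatinib. PLS3 and SUSD3 had differences of 2.92 and 2.38 with lapatinib, and the difference between the comparisons did not pass for either (adjusted p = 0.32 and 0.19). UBB averaged 12.77 with Y15 plus lapatinib and 12.86 with PF04554878 plus lapatinib, a difference that did not pass (-0.09 ± 0.17, adjusted p = 0.69). MDK (-0.08), PDZK1 (0.28), BTBD6 (-0.09) and HBA2 (-0.33) were the other 4 that did not pass. HSPA1A was the gene that turned, with 0.42 ± 0.15 (adjusted p = 0.022) after -3.04.

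**Figure D4:**
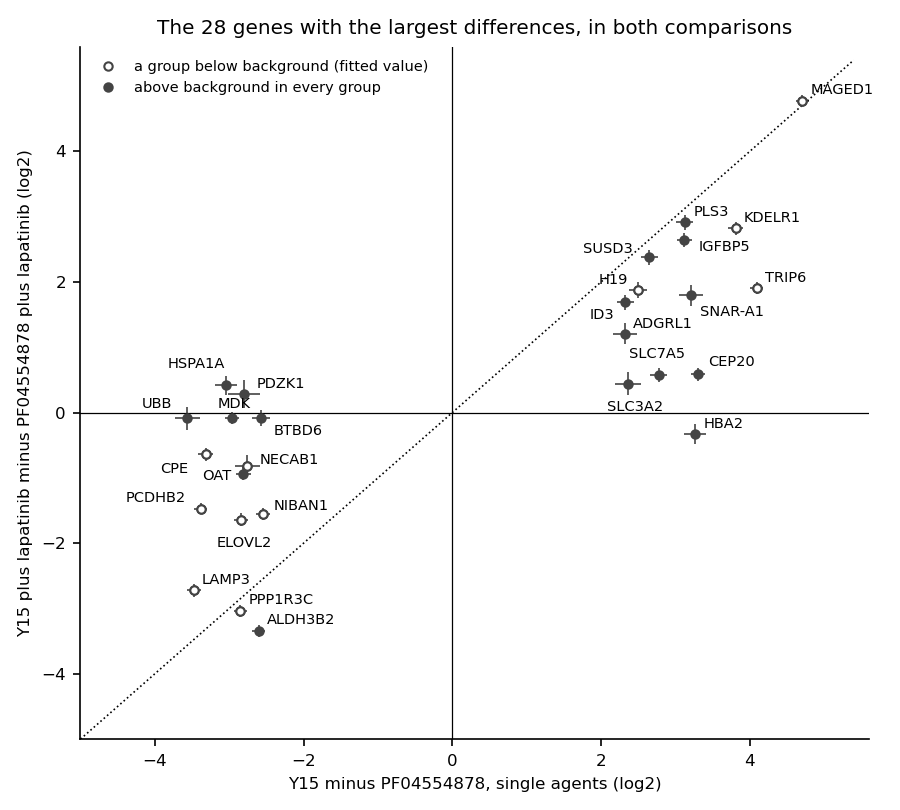
The 28 genes with the largest fitted single-agent differences, with the difference Y15 minus PF04554878 (log2) on the horizontal axis and the difference Y15 plus lapatinib minus PF04554878 plus lapatinib on the vertical axis. Bars are standard errors, the dotted line marks equal values, and open points are genes below background in 1 or more of the 4 groups, whose place is a fitted value. UBB, MDK and BTBD6 lie near 0 on the vertical axis.

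Early response and receptor genes were set beside their single-agent values. MYC was lower (-0.87 ± 0.18) with Y15 plus lapatinib (adjusted p = 0.000605), against 2.27 higher with Y15 as a single agent, and the difference between the comparisons was 3.14 (adjusted p = 8.8e-08). PHLDA1 turned the other way, with 1.25 ± 0.10 with lapatinib. ERBB2 (-0.81) and PTK2 (-0.34) were lower with Y15 plus lapatinib, where both had been higher with Y15 alone. SRC kept its direction with a difference of 1.78. The ribosome biogenesis list had 15 of 29 higher and 4 lower with lapatinib, with a median of 0.23, and the proteasome list 5 of 26 higher and 14 lower, with a median of -0.29, beside 27.1% of all genes higher and 27.2% lower in that pair. Some of the largest differences with lapatinib were in genes whose single-agent values lay close together. GAGE4, a cancer-testis antigen with near-identical copies that its probe may read, averaged 13.48 with Y15 plus lapatinib and 6.53, below background, with PF04554878 plus lapatinib. It was at least 103-fold higher in that pair, and below background on all 4 single-agent arrays. TFF1, an oestrogen-regulated trefoil peptide, averaged 6.63, below background, with Y15 plus lapatinib and 13.73 with PF04554878 plus lapatinib, at least 122-fold lower, while the single agents differed by -0.14, with a 95% interval from -0.40 to 0.11. SERPINA6, the corticosteroid carrier, was at least 24.3-fold higher with Y15 plus lapatinib and below background on all 4 single-agent arrays. Others already differed between the single agents: the tight junction protein CLDN1 was at least 46.8-fold higher with lapatinib and at least 1.55-fold lower with single agents, and the iron exporter SLC40A1 at least 19.1-fold higher with lapatinib and at least 1.53-fold higher with single agents. On the lower side BASP1 was at -5.88 with lapatinib and -1.59 with single agents, and RET at -3.95 and -1.93. SERPINA3 was at least 25.7-fold lower with lapatinib and at -1.91 with single agents, and HENMT1 at least 22.2-fold lower and at -0.55.

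Differences also clustered along chromosomes. Genes were placed in order from the RefSeq table, and the median difference was taken over each run of 25 neighbouring tested genes, 10992 overlapping runs in all. Between the 5th and the 95th percentile the run medians lay from -0.31 to 0.33. The runs described were chosen after their values had been seen and were not tested. From ZCWPW1 to CUX1 on chromosome 7, which holds TRIP6, 20 of 25 genes were higher with Y15 and 0 lower, with a median of 0.93. Median levels in that run were 8.59 in the Y15 arrays, 7.93 in the PF04554878 arrays and 8.65 in the untreated arrays. From EPG5 to SMAD4 on chromosome 18, 20 of 25 were higher and 0 lower, with a median of 0.74. SMAD4, the shared mediator of TGF-beta and BMP signalling, read 8.80 and 8.89 with Y15, 6.60 and 6.47 with PF04554878 and 9.02 and 8.98 in untreated cells, at least 4.14-fold higher with Y15. In the same run CXXC1, a reader of CpG islands, was 2.24 ± 0.09 higher and ACAA2, a mitochondrial thiolase, 1.91 ± 0.11 higher.

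With lapatinib the chromosome 7 run had a median difference of -0.01 and the chromosome 18 run one of 0.09, though SMAD4 itself was still at least 3.32-fold higher. A run on chromosome 5 from CCDC127 to MTRR had medians of 0.69 with single agents and 0.68 with lapatinib, and a run on chromosome 2 from ORC4 to PSMD14 had -0.59 and -0.56. Runs from ZBED1 to OFD1 on the X chromosome and from SDHD to UBE4A on chromosome 11 had medians of -0.57 and -0.57 with single agents, and 0.09 and 0.36 with lapatinib. By whole chromosome, the share of genes higher with Y15 was highest on chromosome 7 (41.8%) and chromosome 18 (39.2%), and the share lower was highest on chromosome 4 (40.6%) and chromosome 2 (39.1%).

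**Figure D5:**
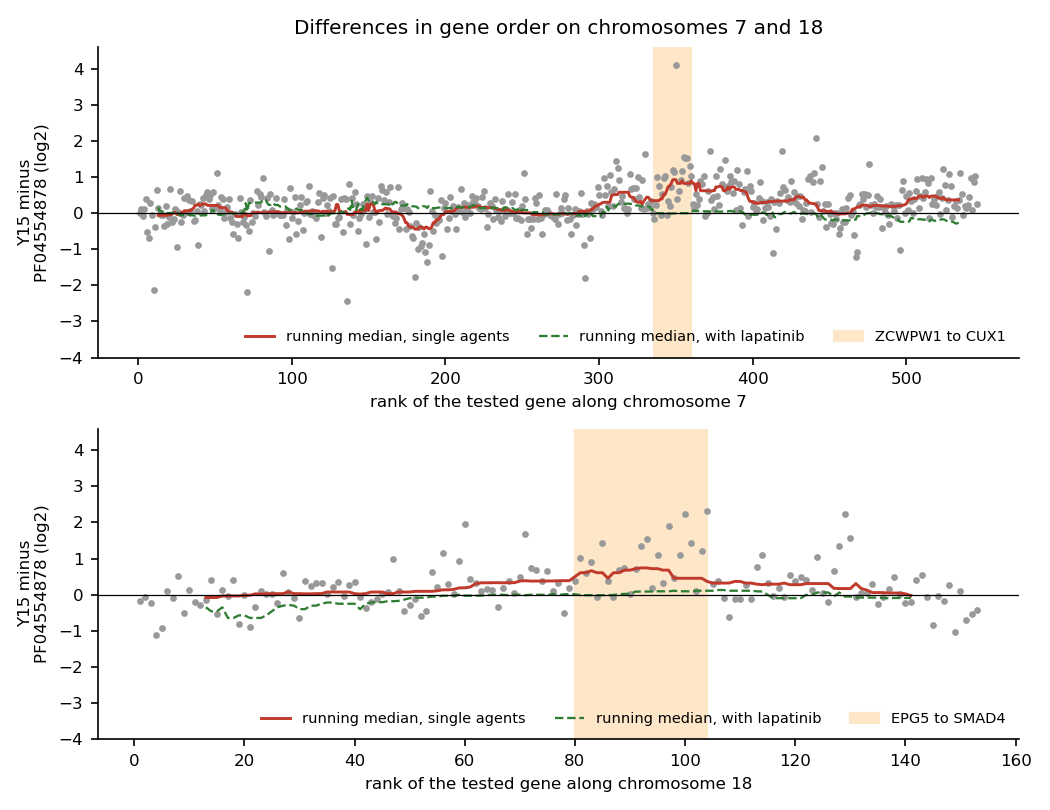
Difference between Y15 and PF04554878 (log2) for each tested gene, in gene order along chromosomes 7 and 18, with the running median over 25 genes for the single agents (solid) and for the pair with lapatinib (dashed). The shaded runs are those from ZCWPW1 to CUX1 and from EPG5 to SMAD4, where the solid line stands above 0 and the dashed line stays near it.

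Markers of cell types were summed on the linear scale over the genes that passed the filter. Background was not subtracted, so part of each sum is background, most of all in the small sums. On all 4 single-agent arrays, 1 of the 2 endothelial and 2 of the 3 fibroblast markers were above background. The 3 of 13 fibroblast markers summed to 400 to 405 in the Y15 arrays, 696 to 702 in the PF04554878 arrays and 372 to 376 in the untreated arrays, and COL5A1, a fibrillar collagen chain, was lower (-1.42 ± 0.09) with Y15. The 2 basal markers that passed, CDH3 and ACTA2, summed to 624 to 670 with Y15, 879 to 942 with PF04554878 and 462 to 578 in untreated cells. Both sums were higher on the PF04554878 arrays than on the other 4. The 8 luminal markers summed to 32786 to 35540 with Y15, 47177 to 48083 with PF04554878 and 29535 to 32721 in untreated cells, again highest with PF04554878. The 2 endothelial markers gave 234 to 245 with Y15, 211 to 225 with PF04554878 and 229 to 241 in untreated cells. The 2 leukocyte markers gave 449 to 450 with Y15, 412 to 437 with PF04554878 and 396 to 459 in untreated cells. The 2 adipocyte markers gave 471 on both Y15 arrays, 344 to 358 with PF04554878 and 349 to 384 in untreated cells. Their part in the differences above was not tested.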

How the data were processed

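The authors deposited log2 intensities, 1 column per array. Per the labels' protocols, cRNA was labelled with biotin and hybridised to Illumina arrays. GenomeStudio is credited to the submitters' processing notes, and how it normalized the arrays is not given in the sources used here. Values ran from 6.20 to 13.90, and once sorted the columns lay within 0.0146 of each other. A second deposited table was not used, because its 24 per-sample columns match no label. Background was taken as the mode of all values, 6.55, and the cutoff as 3 SD above it, 6.80, since no detection p-values could be tied to a sample. Folds on this scale are compressed for dim genes. Of 47318 probes, 30111 carried 1 gene symbol, 8 several and 17199 none. A probe was kept when 2 or more of the 12 arrays exceeded that value, and each of 11564 genes was read from its brightest kept probe. Of 1680 called genes with further kept probes, 28 had a called probe of opposite sign. On each array 9712 to 9902 tested genes were above background. Precision is set by the 2 arrays a group.

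A mean for each of 6 groups was fitted over the 12 arrays with limma 3.58.1 in R 4.3.3 (lmFit, eBayes), with Benjamini-Hochberg adjustment over all genes and a threshold of 0.05. Differences are Y15 minus PF04554878 on the log2 scale, with standard errors (SE, n = 2 arrays a group). A gene with no probe above the cutoff in 1 group has its fold stated as a bound, set against the cutoff. The fit was tested on simulated data. Members and the 39 gene lists were chosen with earlier results of these data known, so lists carry no test. Genes were named by rule: the 14 largest differences each way whose arrays do not overlap, 4 members of each list with the smallest adjusted p, 5 each way with lapatinib, 4 each way for the difference between the comparisons, and PTK2, PTK2B, EGFR, ERBB2 and ERBB3. Members of short counts, marker genes and genes of the neighbour runs that fall outside the rule were named after their values were seen. Genes on the Y chromosome and XIST were not named. Promoters were matched by gene (Biopython 1.88 for the alignment). Alternatives were the filter, probe averaging, background subtraction, centring, the trend and robust settings, the arrays in the fit, the replicate block and each array left out.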

Additional observations from a re-analysis of the deposited data

Results flagged for a closer look

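For 123 genes the difference between the 2 pairs of drugs was itself tested, as limma's contrast of Y15 minus PF04554878 with single agents minus the same with lapatinib. It passed for 94 of them, with adjusted p from 3.22e-15 to 0.0446. The 123 include genes named for the size of this contrast or of either pair, so their number is no measure of how common such differences are. Values below are that contrast on the log2 scale, and no cause was tested. Each pair rests on 2 arrays a group.

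In 22 genes above background on at least 1 array of every group, both pairs passed in opposite directions. With Y15 higher alone and lower in the presence of lapatinib, the contrast was 3.14 for MYC, 2.97 for BCL2, 3.79 for GFRA1 and 2.32 for FTL. For GFRA1 the direction alone rests on the brightest probe (1.25). Its other probes differed by -0.75 and -0.42 and passed lower with Y15 alone, and the average of its probes did not pass (0.03). The contrast was 2.30 for IRS2, 2.20 for ACAA2, 1.90 for DDIT4 and 1.38 for NOP2. It was 1.37 for ERBB2, 1.19 for ASAP1 and 0.86 for PTK2. With Y15 lower alone and higher in the presence of lapatinib, it was -5.28 for TP53I3, -3.46 for HSPA1A and -3.07 for AGR2. It was -3.03 for PHLDA1, -2.60 for SC5D, -2.22 for STC2 and -2.13 for CDK1. For VCL it was -1.55, for RPS23 -1.51, for UTP4 -1.30 and for NOP10 -1.01.

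In 16 further genes only the single agents passed. The contrast was 3.59 for HBA2, 2.26 for SLC39A4, 2.19 for IER3, 1.53 for JUNB, 1.39 for NHP2 and 1.38 for DDR1. It was 0.90 for HSP90AB1, 0.89 for NCL and 0.74 for GRB7. On the other side it was -3.47 for UBB, -3.08 for PDZK1, -2.88 for MDK and -2.48 for BTBD6. It was -1.58 for ACTA2, -1.45 for IGF2BP2 and -1.26 for UBE2L6.

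In 24 genes both pairs passed in the same direction, with the larger difference between the single agents. Among genes higher with Y15, the contrast was 2.72 for CEP20, 2.20 for SLC7A5, 1.92 for SLC3A2, 1.42 for SNAR-A1 and 1.11 for ADGRL1. It was 0.95 for CXXC1, 0.70 for MCM7, 0.64 for ID3, 0.55 for DSG2 and 0.48 for both IGFBP5 and RPS3. Among genes lower with Y15 it was -1.87 for OAT, -1.40 for SLC39A8, -0.84 for CDH1, -0.81 for PSMB1, -0.79 for FERMT2 and -0.66 for AJUBA. It was -0.59 for PSMB6, -0.57 for TGFA, -0.56 for H2BC21, -0.55 for PARVA, -0.54 for H4C8, -0.50 for PHLDA3 and -0.48 for PIK3R1.

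In 10 genes both passed in the same direction with the larger difference in the presence of lapatinib. Among genes lower with Y15 the contrast was 4.28 for BASP1, 2.02 for RET, 1.31 for TFF3, 0.73 for ALDH3B2, 0.59 for H2AC20, 0.51 for PSME1 and 0.46 for HMGCS1. Among genes higher with Y15 it was -1.80 for RFC4, -1.23 for PSMD2 and -0.40 for SRC.

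The other 22 genes were below background on both arrays of at least 1 of the 4 groups. Their contrasts are fitted values set against background readings, neither exact sizes nor bounds, and they are given in no order and with no statement of which pair differed more. They were 6.96 for TFF1, 4.11 for HENMT1, 2.98 for SERPINA3, 2.19 for TRIP6, 0.99 for KDELR1, 0.62 for H19, 0.40 for PCDHB16 and 0.38 for PCDHB3. On the other side they were -7.02 for GAGE4, -6.76 for CLDN1, -4.91 for SERPINA6, -3.66 for SLC40A1, -2.68 for CPE, -2.10 for CEACAM6 and -1.93 for NECAB1. They were -1.91 for PCDHB2, -1.20 for ELOVL2, -1.13 for ROR2, -0.98 for NIBAN1, -0.76 for LAMP3, -0.38 for PCDHB13 and -0.34 for EGFR.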

How the results depend on the processing

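The counts of genes past the threshold stayed within 1.5 times their main values under the alternatives run. For Y15 minus PF04554878, where 5483 genes passed, they ran from 4235, with genes above background on all 12 arrays, to 6951, with every probe as a feature. With 1 of the 4 arrays left out they ran from 4247 to 4675, and the lone array is then assumed to vary like the other groups. Centring each array on its median split the calls into 2762 higher and 2765 lower. With 1 array left out, counts ran from 5321 to 5397 for the pair with lapatinib and from 4371 to 4625 for the difference between the 2 comparisons. Deviations of the arrays numbered 1 correlated at -0.11 between Y15 and PF04554878, and from -0.33 to 0.18 over all pairs of groups. With 2 arrays a group, these values cannot show whether replicate numbers pair the arrays. The replicate block gave 5296 calls for the single agents, and the crossed replicate block, added after seeing the data, gave 5335. The Y15 plus lapatinib arrays are numbered 1 and 3, and no other array is numbered 3. Under the block that group therefore rests on 1 array, and the block counts that involve it are not given. Among the 193 genes followed, 2980 of 3032 values kept their direction and their side of the threshold, 40 no longer passed and 10 newly passed, all in HOXC4 and HOXC10. The other 2 turned: FZD7 from -1.06 to 0.0600 when only probes above background on all 12 arrays were kept, and KRT80 from -0.35 to 0.13 with probes averaged, and neither then passed. Both changes came with another probe, or set of probes, being read. Precision is limited by 2 arrays a group and, for genes near background, by signal over background.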

Other observations

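Other gene lists held genes that passed in both directions between Y15 and PF04554878, beside 22.9% of all genes higher and 24.5% lower. Of 17 luminal transcription factors 6 were higher and 4 lower with Y15, of 18 FOXO targets 7 and 6, of 33 respiratory chain genes 8 and 11, and of 18 BCL2 family genes 5 and 5. Tight junction genes had 2 of 15 higher and 4 lower, keratins 1 of 8 higher and 3 lower, and Wnt feedback genes 4 of 14 higher and 5 lower. Glycolysis and hypoxia genes had 5 of 24 higher and 7 lower, and antigen presentation by HLA class I 3 of 17 higher and 6 lower. Of 8 EGFR and ERBB receptors and ligands 2 were higher and 3 lower. With 1 array left out several of these counts moved by over 1.5 times. Higher glycolysis genes numbered 2 or 3 without any 1 of the 4 arrays, and higher BCL2 family genes 3 without Y15 replicate 1, Y15 replicate 2 or PF04554878 replicate 1. Lower keratins numbered 0 without Y15 replicate 1 and 1 without PF04554878 replicate 2, higher keratins 0 without Y15 replicate 2 or PF04554878 replicate 2, and higher tight junction genes 1 without Y15 replicate 1. Higher Wnt feedback genes numbered 2 without Y15 replicate 2, and lower respiratory chain genes 7 without PF04554878 replicate 2.

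Of 17 genes of the ERBB2 amplicon on 17q12, 6 were higher with Y15, GRB7 and ERBB2 among them, and 0 were lower. Of 20 genes from the breast amplicons on 20q13 and 17q23, 1 was higher and 9 lower, with a median of -0.14. In the pair with lapatinib, where 27.1% of all genes were higher and 27.2% lower, the second list had 2 higher and 16 lower, with a median of -1.65. HOX genes had 2 of 13 lower and 0 higher with single agents, and 8 higher and 1 lower with lapatinib. Of the 13, 7 were above background on all 4 single-agent arrays, so the 2 pairs are not compared on like terms.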
